A study of Mus musculus with 4 samples.

Results

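Of 6697 distinct regions in a table of m6A-seq signal from mouse embryonic stem cells, 316 (4.72%) carried the overlap label Genic in at least 1 row and no label of a coding exon or an untranslated region. They were taken by that rule alone, without use of the counts. Their working description was regions in non-coding transcripts, and the annotation went against it: 180 of the 316 lay under genes that RefSeq lists as protein-coding. They are therefore called Genic-labelled regions below.

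The study compared cells labelled wildtype with cells labelled Gsk-3 DKO, which lack both Gsk-3 kinases. Both carried the strain label E14K, were cultured without feeders and spent 14 days without LIF, the cytokine that keeps such cells self-renewing. Each genotype gave 1 library of mRNA captured with an m6A antibody and 1 input library. The table held 1 count per genotype, matched here to the captured libraries, and 0 input columns. The labels do not say whether the knockout cells were a single clone. With 1 library per genotype there is no spread between replicates and no test, and every difference is one between these libraries. Of 12 markers of embryonic stem cells, 5 had a listed region (Pou5f1, Esrrb, Utf1, Lin28a and Sall4), while Nanog, Sox2, Zfp42 and Klf4 were among those with none. Markers of other lineages were listed as well, 6 of 8 for primitive endoderm, 4 of 5 for neural cells and 5 of 6 for mesoderm. Only regions lower in the double knockout are listed, so a marker with none may still be expressed. These marker counts do not settle which cells were present.

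N6-methyladenosine (m6A) is the most common internal modification of mRNA. A methyltransferase complex places it on nascent RNA within a short sequence context centred on an adenosine followed by a cytosine, and it is dense in long internal exons and near stop codons. Reader proteins that bind it change splicing, translation and decay. Small nuclear and other non-coding RNAs can carry it too, in part through other enzymes.

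The Genic label marked rows to which the authors' annotation attached no transcript. All 365 rows with the label had a blank transcript field, and 0 rows labelled as coding exon, UTR or intron did. Among upstream rows it was blank in 182 of 785. None of the genes named in the Genic rows of the 316 regions had an exon, UTR or intron row elsewhere (0 genes). Non-coding RNAs with a RefSeq NR transcript were under other labels instead: 75 such rows were labelled as UTR, 57 as intron, 99 as upstream and 0 as Genic. Without an exon model, whether a Genic-labelled region is exonic or intronic cannot be told here, since the RefSeq table used gives gene spans only.

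By the gene named in the Genic row, 180 regions belonged to 106 protein-coding genes. A further 57 lay under pseudogenes, 19 under long non-coding RNAs, 9 under small RNAs (ribosomal, small nuclear, signal recognition particle and micro RNA) and 7 under other loci, mostly antigen receptor loci. The remaining 44 had a gene identifier with no match in RefSeq, of which 28 lay inside the span of a protein-coding gene. In 152 of the 180 protein-coding regions the deposited symbol differed from the RefSeq symbol, and in 139 of these it was among the synonyms RefSeq gives for that gene. The labels Mtap1b, Spnb2, Jub and Eif2c2, for instance, stand for Map1b, Sptbn1, Ajuba and Ago2, and RefSeq symbols are used below. Besides their Genic row, 34 regions had a row in an intron of another gene and 24 a row upstream of one.

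Sequences could be read for few of the regions, because only the first transcribed bases of genes and the micro RNA sequences were at hand. A micro RNA overlapped 2 of the regions, and its mature products are shown with the seed (bases 2 to 8) in capitals, as RefSeq gives them for GRCm38.p6. The region named for Mir5110 covered 18 of the 25 bases of the mature RNA. The bases left out were those at its start, and of the seed only base 8 lay inside the region. The region named for Misp3 covered both arms of Mir1199, a gene the table did not name there.
mmu-miR-5110 (minus strand, chr11:85760675-85760699): gGAGGAGGuagagggugguggaauu
mmu-miR-1199-5p (minus strand, chr8:84011594-84011613): uCUGAGUCccggucgcgcgg
mmu-miR-1199-3p (minus strand, chr8:84011549-84011569): uGCGGCCGgugcucagucggc
No seed was shared among these 3. The Mir5110 region, on chromosome 11 (85760541 to 85760692) in an intron of Bcas3, had 34 wild-type reads and 0 double-knockout reads. The Misp3 region had 26 and 2. Which transcript gave the reads was not tested.

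The first transcribed bases of a RefSeq gene reached at least 30 bases into 10 of the regions, 7 of them regions of that same gene. They were searched on the transcript's strand for GGAC, the usual core of the m6A context, which was found in 2. Their 30 bases around the match are shown with GGAC in capitals, for Uri1, a prefoldin-like chaperone, and for Sptbn1, a beta spectrin.
Uri1 (minus strand, chr7:38019503-38019532): gcgcggcagtcgcgGGACgctaagctgggc
Sptbn1 (minus strand, chr11:30219734-30219763): aagtaactgatgtGGACaagcagctgagac
Of 32851 RefSeq starts, 18.9% had GGAC in their first 50 transcribed bases. The Uri1 region had 123 reads in wild type against 11, and the Sptbn1 region 32 against 1. The base after GGAC was g in Uri1 and a in Sptbn1. The fuller m6A consensus DRACH, where H is any base but G, thus fits the Sptbn1 match and not that of Uri1. The matches describe these letters only, and no site of methylation was located.

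In wild type the 316 regions had a median of 42 reads (range 15 to 13799), and in the double knockout a median of 1 (range 0 to 1100). Every listed region of the table was lower in the double knockout, so this direction is a property of the list. The fold is the wild-type over the double-knockout count after the authors' constant (0.825). For regions without double-knockout reads, a floor of 3 counts stood in for the divisor. Such a value is nominal, because the exact 95% interval of a count of 0 reaches 3.69. Lower limits given beside it come from exact 95% intervals. A count of 0 was found in 155 Genic-labelled regions (49.1%, exact 95% interval 43.4 to 54.7), against 50.5% of all regions. At least 10-fold lower were 154 (48.7%), against 52.5% of all regions. Both shares were near the background. On the log2 scale, with a pseudocount of 0.5 added to each count, the double knockout lay at a median of -4.93 relative to wild type in the Genic-labelled and in all regions alike. The middle part of the Genic-labelled regions, between the quartiles, ran from -5.69 to -3.42. Intervals cover counting error only, because amplified reads that carry no molecular identifier may copy 1 molecule, and they treat regions as independent although 21 lay within 100 bases of another listed region. Less RNA, fewer cells that make it and less methylation of it cannot be told apart in these counts.

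**Figure D1:**
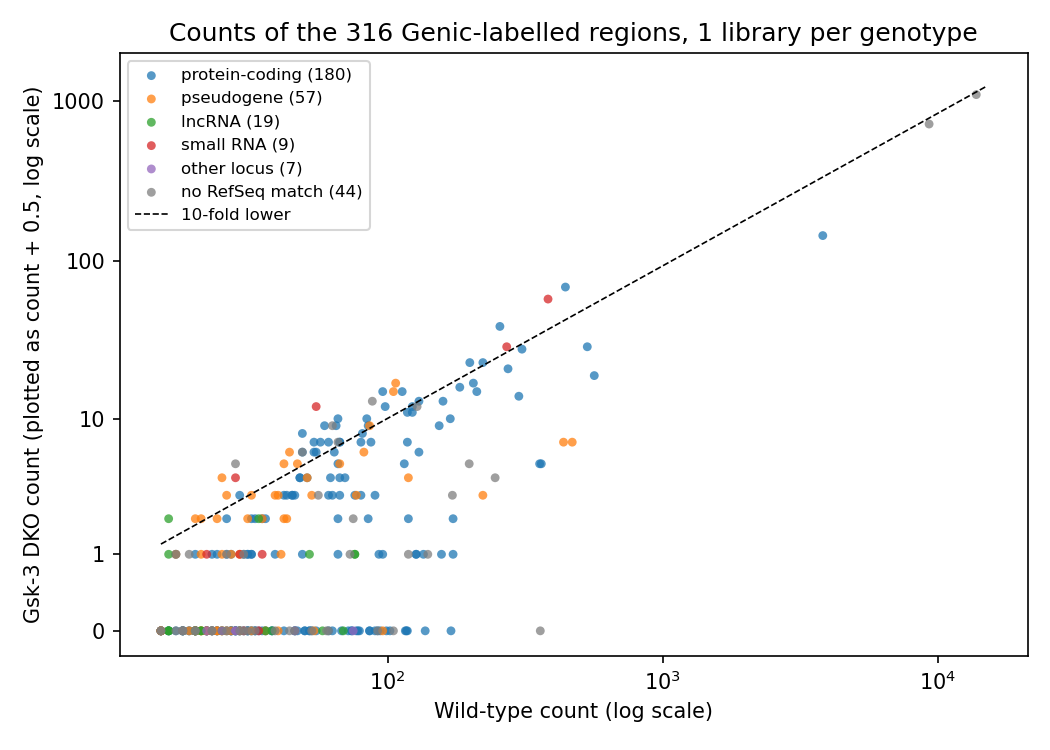
Wild-type count (x, log scale) against double-knockout count (y, log scale, drawn as count plus 0.5) for each Genic-labelled region, coloured by the RefSeq class of its gene, with a dashed line at a 10-fold difference. The 155 regions at 0 form the bottom row, and the 2 regions inside Ahnak2 stand at the upper right, close to the line.

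The share without double-knockout reads fell as the wild-type count rose, from 82.4% of 34 regions with 15 to 19 reads, through 73.4% of 79 with 20 to 29 and 47.0% of 66 with 30 to 49, to 37.5% of 80 with 50 to 99 and 14.0% of 57 with 100 or more. Regions in coding exons or UTRs had 68.1%, 54.9%, 43.5%, 27.7% and 11.9% in the same ranges. Regions in introns only had 93.2%, 85.7%, 73.9%, 65.4% and 30.3%. Within each range the Genic-labelled share thus lay between these groups. Counts within a range, region length and reads per base were not equalised. In the 3 ranges from 30 reads up, their intervals (34.6 to 59.7, 26.9 to 49.0 and 6.26 to 25.8) included the exonic value and lay below those of intronic regions and of regions in no gene (76.1%, 65.0% and 31.2%). At 20 to 29 reads the interval (62.3 to 82.7) included neither the exonic nor the intronic value. The protein-coding regions among them had 92.9% of 14 at 15 to 19 reads and 80.0% of 35 at 20 to 29, where the interval (63.1 to 91.6) included the intronic and not the exonic value. They had 45.9% of 37 at 30 to 49 reads, 38.2% of 55 at 50 to 99 and 15.4% of 39 at 100 or more.

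**Figure D2:**
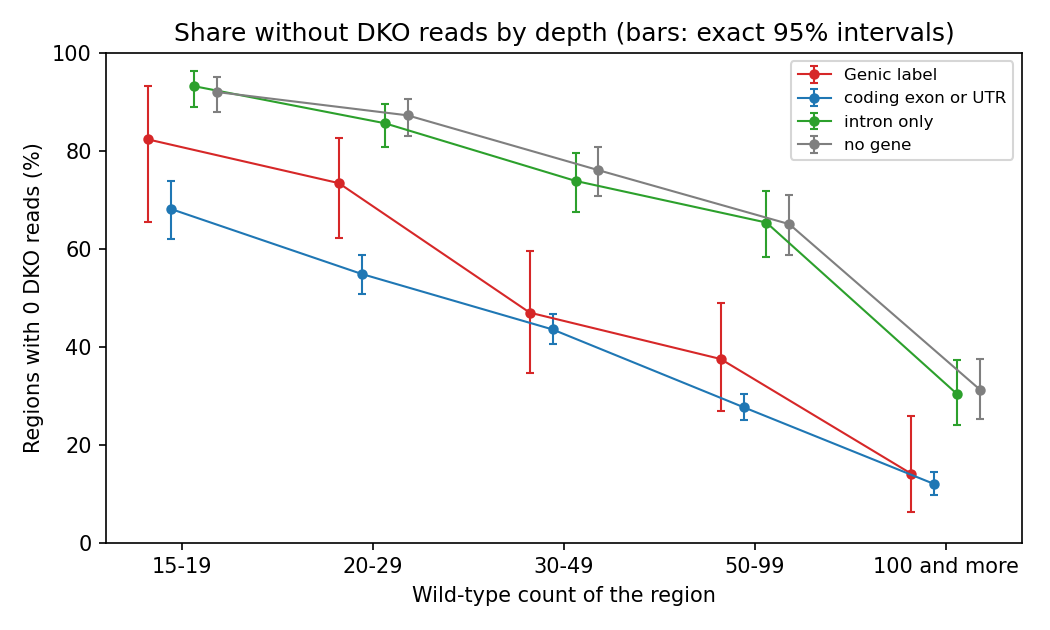
Percentage of regions with 0 double-knockout reads (y) in 5 ranges of wild-type count (x), with exact 95% intervals over regions, for Genic-labelled regions and 3 other kinds of region. The Genic-labelled points go from 82.4% to 14.0% and lie between the exonic and the intronic points in every range.

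By total count, the 2 highest regions of the whole table were among the Genic-labelled ones, and both were long. Their 2.52 and 2.59 wild-type reads per base, in the order given here, were below the highest exonic value (9.14) and the highest intronic one. Under the symbol LOC101055828, which had no match in RefSeq, 8 regions lay on chromosome 12 inside the RefSeq span of Ahnak2, a giant scaffold protein gene related to Ahnak. The longest (112779454 to 112784934, 5481 bases) had 13799 reads in wild type and 1100 in the double knockout, a 10.3-fold difference (95% interval 9.73 to 11.0). Its neighbour (112775769 to 112779364) had 9298 and 721, 10.6-fold (9.86 to 11.5). These 2 regions differed by less than their counting error, and together they held 47.4% of the wild-type and 60.8% of the double-knockout reads of all Genic-labelled regions. The other 6 had 28 to 198 wild-type reads and 2 to 12 double-knockout reads, and their folds ran from 4.62 to 32.7. Summed over the 316 regions the counts were 48778 and 2993 (13.4-fold), and without the 2 deepest 25681 and 1172 (18.1-fold), beside 17.5-fold over all listed regions.

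Ajuba, which encodes a LIM-domain protein at cell junctions, had the Genic-labelled region with the next highest count, on chromosome 14 (54576159 to 54577596), with 3819 reads against 145 (21.7-fold, 18.4 to 25.8). Its other regions had 173 against 1 (143-fold, 25.3 to 5668), 31 against 1 and 20 against 0. In the rest of the 10 deepest, Ccdc194 had 564 against 19 in a region shared with the pseudogene Gm7850 (24.5-fold). The dynein heavy chain gene Dnah7c had 532 against 29 (15.1-fold), and the fusion gene Iqschfp 362 against 5 (59.7-fold). The remaining 4 of these 10 are described with their groups.

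Mtcl1 and the genes named Map, for microtubule-associated proteins, accounted for 32 of the regions, in 7 genes. The grouping was made with the values known and leaves out Dnah7c and Cep170b. The counts of the 32 regions summed to 3680 against 212 (14.3-fold), and their median wild-type count was 81. At 0 double-knockout reads were 9 (28.1%, 13.7 to 46.7), against 50.5% of all regions and 37.5% of Genic-labelled regions with 50 to 99 reads. At least 10-fold lower were 23 (71.9%), against 52.5% of all regions. This share depends on depth, since at the floor of 3 counts a shallow region at 0 cannot reach 10-fold. Of the 157 Genic-labelled regions whose mean count reached the median of all regions, 110 were at least 10-fold lower. The values below are sums over the regions of each gene, and regions of 1 gene spread widely, with log2 values from -7.22 to -3.49 in Map7d1 and from -4.68 to -2.26 in Mtcl1. Mtcl1, a crosslinker of microtubules, had 8 regions on chromosome 17 that summed to 1088 against 128 (7.01-fold, 5.83 to 8.49). In its deepest region (66379428 to 66379688) 443 reads stood against 69 (5.30-fold), and the adjoining regions with 49 against 8 and 59 against 9 share bases with one another or with it. Map7d1, a microtubule-binding activator of kinesin, had 6 regions on chromosome 4 summing to 1162 against 38 (25.2-fold, 18.3 to 35.8). Map1a, Map1b and Map1s encode related microtubule-associated proteins. The 7 regions of Map1b, on chromosome 13, had 580 against 29 (16.5-fold, 11.4 to 24.9), and all 7 had double-knockout reads. The 5 regions of Map1s, on chromosome 8, had 340 against 16 (17.5-fold, 10.6 to 31.0). The 4 regions of Map1a, on chromosome 2, had 94, 27, 74 and 72 reads against 0 in each, at least 73.4-fold lower when summed. Map1a thus gave no double-knockout reads at a summed depth of 267, while Map1b and Map1s did. Map6 had 157 against 1, and Map9 had 86 against 0.

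**Figure D3:**
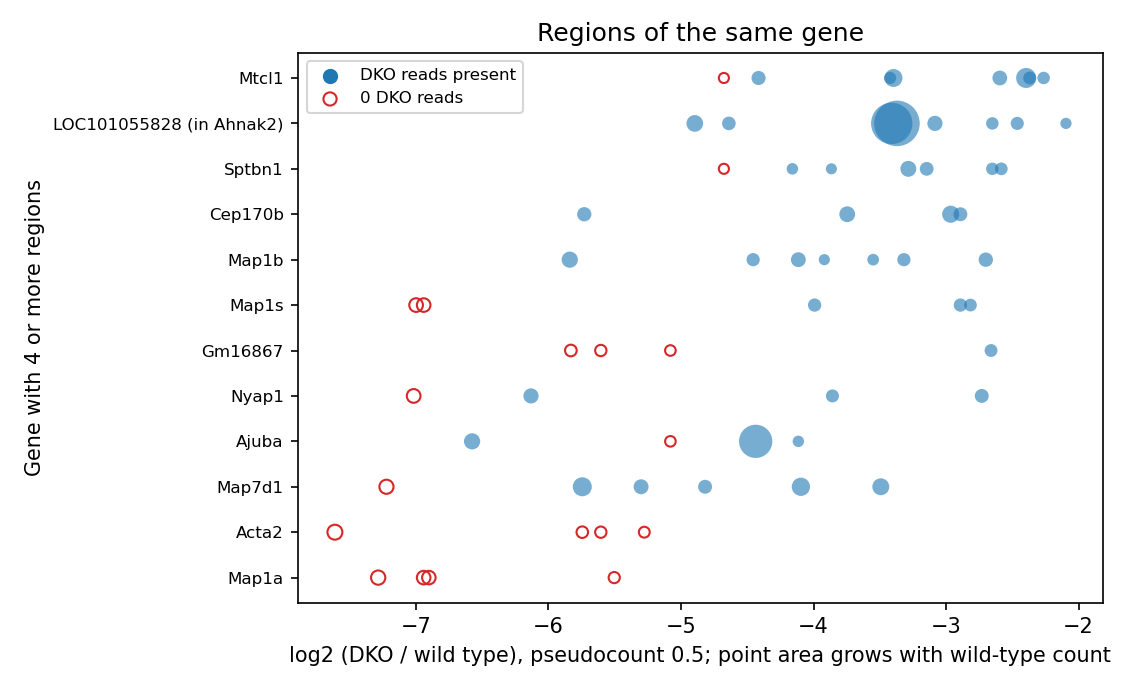
Log2 of double knockout over wild type (x, pseudocount 0.5) for each region of the 12 genes with 4 or more Genic-labelled regions (y), with point area growing with the wild-type count and open red points for 0 double-knockout reads. Mtcl1 and the Ahnak2 regions lie farthest to the right, and all 4 regions of Map1a and of Acta2 are open points on the left.

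Beta spectrins, which form the membrane skeleton, were likewise grouped with the values known. Sptbn1 had 7 regions on chromosome 11 that summed to 415 against 35 (9.78-fold, 6.92 to 14.2). The single region of Sptbn4 had 29 against 3. Cep170b, a centrosomal gene on chromosome 12, had 222 against 23, 154 against 9, 85 against 9 and 96 against 1. Nyap1, a neuronal adaptor of PI3K signalling, had 84 against 10, 127 against 1, 78 against 0 and 61 against 3. Regions of 1 gene thus ranged widely, with log2 values from -7.02 (a region at 0) to -2.73 in Nyap1 and from -5.84 to -2.70 in Map1b.

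The largest changes on the log2 scale, with the pseudocount of 0.5, were sought where the mean of both counts was at least 22. That limit is the median of the Genic-labelled regions. All 10 regions named there had 0 double-knockout reads, so their order follows the wild-type count. The fold, with zeros at the floor of 3 counts, gives another order. By it the Ajuba region with 173 against 1 (143-fold) exceeded the floor value of each of the 10. The lysine transfer RNA region had 359 reads against 0, and is described below. The torsin family gene Tor4a had 170 against 0 on chromosome 2 (at least 46.7-fold) and Vwa3b 137 against 0 (at least 37.7-fold). Acta2, the smooth muscle actin gene, had 118 against 0 on chromosome 19 (34252391 to 34252545, at least 32.4-fold), and its other 3 regions had 23, 32 and 29 against 0. Its 4 regions summed to 202 against 0. Garem1, an adaptor of growth factor receptors, had 117 against 0, Lzts3 116 against 0, LOC100861884 105 against 0, the zinc finger gene Zbtb21 99 against 0 and Map1a 94 against 0.

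At the near end, the small nuclear RNA gene Rn7sk had the smallest fold of any Genic-labelled region, and 3 of the 10 regions named at this end lay in Mtcl1. Kat6b, a histone acetyltransferase gene, had 96 against 15 (5.28-fold). Mideas, a subunit of a histone deacetylase complex, had 66 against 10 (5.44-fold), and Crebzf, a transcription factor of the unfolded protein response, had 256 against 39 (5.41-fold, 3.85 to 7.79). The Y-chromosome region deposited as Mid1 had 88 against 13 (5.58-fold) and lay in the span of the pseudogene Mid1-ps1. A region inside Ahnak2 with 63 against 9 (5.77-fold) completed the regions named at this end, beside the ribosomal RNA gene below. The limit of 22 on the mean count held here too, and predicted genes and pseudogenes were passed over at both ends. Among those passed over were Gm12715 with 107 against 17 (5.19-fold) at this end and Gm19178 with 96 against 0 at the other.

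Some shallower regions of known regulators were also looked up with the values known. Bmp2, a secreted differentiation signal, had 48 against 4 and 33 against 2. Ago2, the effector of micro RNA silencing, had 67 against 4 (13.8-fold, 5.15 to 52.2). The transcription elongation factor genes Supt5 and Supt6 had 28 against 0, and 20 against 1 and 31 against 0. The mechanosensitive channel genes Piezo1 and Piezo2 had 27 against 0 and 70 against 4.

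The 57 pseudogene regions had wild-type counts from 15 to 469 (median 29), and 24 (42.1%, 29.1 to 55.9) had 0 double-knockout reads, an interval that includes the 50.5% of all regions. With 20 to 29 reads 62.5% of 24 (40.6 to 81.2) were at 0, beside 73.4% of all Genic-labelled regions. With 30 to 49 reads 21.4% of 14 (4.66 to 50.8) were, beside 47.0%. Both intervals include the share of all Genic-labelled regions. Their summed counts were 3216 against 135 (19.6-fold). The deepest lay on chromosome 13, where Gm19484 (50197720 to 50198093) had 469 against 7 (55.3-fold, 26.6 to 138) and Gm29777 (50613082 to 50613402) 436 against 7 (51.4-fold, 24.7 to 129). In the same interval Gm20789 had 222 against 3 (61.0-fold, 20.6 to 298), and Gm9699, unmatched by identifier, 246 against 4 (50.7-fold, 19.6 to 188). These 4 folds agreed within their counting error. Whether they hold copies of 1 sequence, among which reads would be split, was not tested. Krt8-ps, a copy of the keratin gene Krt8, had 105 against 15 (5.77-fold) and 67 against 5. Reads from a parent gene and its processed copy cannot be told apart in these counts.

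**Figure D4:**
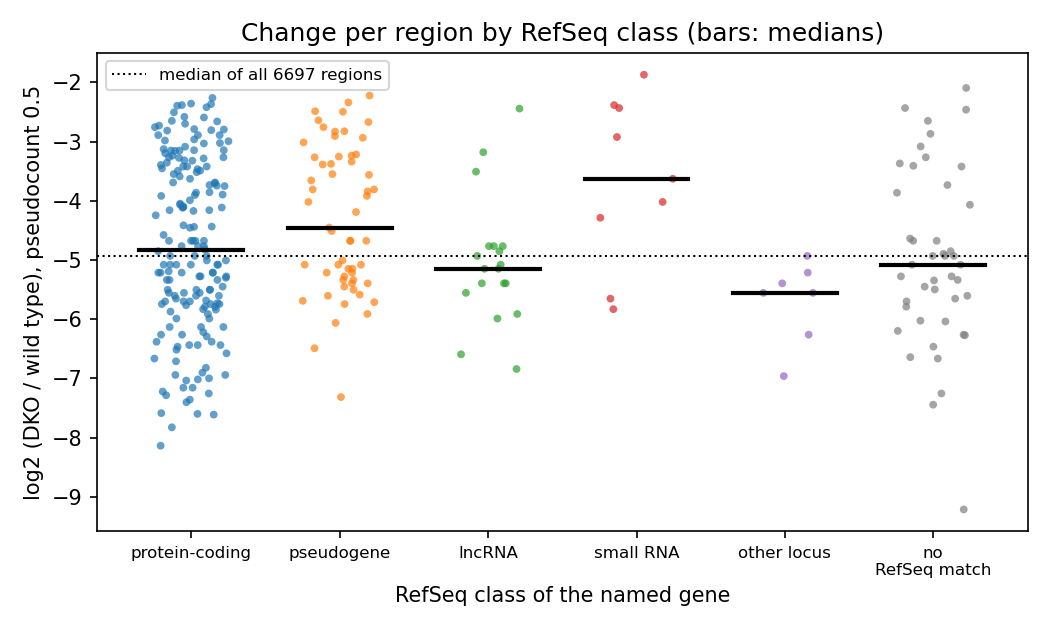
Log2 of double knockout over wild type (y, pseudocount 0.5) for each Genic-labelled region by the RefSeq class of its gene (x), with horizontal bars at the class medians and a dotted line at the median of all 6697 regions (-4.93). Points of the protein-coding and pseudogene classes spread over most of the range, and the 9 small RNA regions include the highest value.

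Of the 16 housekeeping small RNA genes listed for naming, 2 had a Genic-labelled region. Rn7sk, whose RNA holds back transcription elongation, had 55 against 12 on chromosome 9 (78175330 to 78175510), 3.78-fold (2.0 to 7.76). Rn7s2, the RNA of the signal recognition particle, had 271 against 29 on chromosome 12 (69361301 to 69361484), 7.71-fold (5.25 to 11.7). The ribosomal RNA gene n-R5s134, deposited as Rn5s19 and listed on chromosome 8 (123596426 to 123596575), had 383 against 58 (5.45-fold, 4.12 to 7.31). On chromosome 11, Rnu1a1, a gene for the spliceosomal U1 RNA, had 28 against 4. The 4 genes Rnu3b1, Rnu3b3, Rnu3b4 and Rnu3b2 for the nucleolar U3 RNA had 35, 29, 22 and 30 reads against 1, 1, 1 and 0. Such genes exist in several near-identical copies, so the assignment of reads to a copy is uncertain. With Mir5110, 2 of the 9 small RNA regions (22.2%, 2.81 to 60.0) had 0 double-knockout reads, against 50.5% of all regions. At least 10-fold lower were 3 (33.3%), all U3 genes, against 52.5% of all regions. The U3 gene at 0, Rnu3b2, was not among them because its value at the floor of 3 counts was 8.25-fold. The class summed to 887 against 106 (6.90-fold). These RNAs are not polyadenylated as mature molecules, and what carried them through oligo(dT) selection was not tested.

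The transfer RNA region, deposited as Trnak-cuu, lay on chromosome 13 (4224146 to 4224391), at a deposited distance of -48 bases to the start, and had 359 reads against 0, at least 98.7-fold lower. It overlaps n-TKctt6 in RefSeq and, at 246 bases, is much longer than a transfer RNA. Which transcript gave the reads was not tested.

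Of the 19 regions under long non-coding RNAs, 13 (68.4%, 43.4 to 87.4) had 0 double-knockout reads, against 50.5% of all regions, and 8 (42.1%) were at least 10-fold lower, against 52.5%. They were shallow, with 16 to 76 wild-type reads (median 25), and 73.4% of all Genic-labelled regions with 20 to 29 reads were at 0. Gm20751 and 1700048F04Rik each had 76 against 1 (62.7-fold). The regions named for Gm10369 and A830035A12Rik had 69 against 0 and 58 against 0. In RefSeq they overlapped only the kinase gene Limk1 and the helicase gene Helz, not the RNA named. Each also had an intron row, so these reads cannot be assigned to the long non-coding RNA. Tnfsf13os, transcribed opposite Tnfsf13, had 34 against 2 (14.0-fold). Whether the counts used strand is not given in the labels, and without it reads of such a pair cannot be told apart. None of the 44 nuclear long non-coding RNAs listed for naming had a Genic-labelled region (0 regions), and 6 were in the table under other labels. The antigen receptor loci Igh, Igk and Tcra had 5 regions with 25 to 75 wild-type reads (median 28) and 0 in the double knockout. Their share at 0 (100%, 47.8 to 100) had an interval that included the 50.5% of all regions. It also included the 73.4% of Genic-labelled regions with 20 to 29 reads.

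Of the 44 regions without a RefSeq match, the 36 outside the Ahnak2 cluster had 15 to 359 wild-type reads (median 32). At 0 double-knockout reads were 24 (66.7%, 49.0 to 81.4), against 50.5% of all regions. Of all Genic-labelled regions, 73.4% with 20 to 29 reads and 47.0% with 30 to 49 were at 0. At least 10-fold lower were 19 (52.8%), against 52.5% of all regions. Gm15903, inside the span of Nipsnap2, had 172 against 3. LOC100046763, inside that of the phosphatase gene Ptprd, had 140 against 1 and 19 against 1, and Gm19615, inside that of Ero1a, had 119 against 1.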

How the data were processed

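m6A-captured and input RNA of both genotypes are described in the labels of 4 samples; the captured pair was analysed from 1 deposited table. Its columns are, per the file headers, a count per genotype, a ratio (enrichment factor, wild type over double knockout times 0.825, blank at 0), a read density signal (wild-type count over length) and a distance to the transcription start, treated as a score in bases; all are as deposited by the authors. Whether counts were normalized, and which caller listed the regions, the sources used here do not give. Bowtie2, DESeq and mm9 are named per the submitters' processing notes. Coordinates match GRCm38: 6035 of 6044 rows with an identifier in the RefSeq table (GRCm38.p6) fell on that gene or at most 5000 bases from it, and the deposited distance equalled that to a RefSeq start within 2 bases in 117 of 160 members compared. The assignment of counts to captured rather than input libraries rests on the sample titles. Library totals and the sequence of the regions beyond gene starts were not analysed here.

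Each distinct region was used singly. Of 325 Genic rows of members, 278 matched RefSeq by gene identifier, 2 of them after removal of a placement suffix. Exact 95% intervals of ratios and of shares follow Clopper and Pearson; their code was tested on simulated data (Python 3.11.15, scipy 1.17.1). Named regions were those of listed RNA genes, the 10 deepest, the 10 at each end of the change at or above the median mean count (predicted genes and pseudogenes passed over) and the 5 with most double-knockout reads, 35 in all, of which 1 is not reported here; others were chosen after their values were seen. Members and lists were chosen with earlier results of these data known.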

Additional observations from a re-analysis of the deposited data

How the results depend on the processing

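The median log2 value of the Genic-labelled regions (-4.93) was -4.11 in the 157 whose mean count reached the median of all regions, -5.21 when the authors' constant was left out, -1.17 with a median-ratio factor, -5.74 with a pseudocount of 0.25 and -3.31 with one of 2. The factor came from the 3315 listed regions with reads in both libraries, all of them lower in the double knockout. By construction it centres the change of those regions near 0. It moved every log2 value up by 3.77 and put 15 of the 35 named regions above 0, a sign that says nothing about direction. The 155 regions without double-knockout reads were 43 of those 157 and 70 of the 136 whose named gene RefSeq does not call protein-coding. Of the 86 outside every RefSeq protein-coding span, 49 were without such reads. Fewer regions were counted in each of these subsets. The 154 at least 10-fold lower were 60 of the 136, 30 of the 86, 1 with the median-ratio factor and 259 with a floor of 1 count. The subsets by span, and the median without the 2 deepest regions (-4.93), were added after seeing the data. With 1 region per gene (222) or with Genic rows only (259), the median and both counts stayed within the limits set for them. Of 140 alternatives of the 35 named regions, 102 lay within counting error. For named regions at 0 double-knockout reads that error sets no upper limit to the fold. A larger fold could not leave it there, so these cases say little about stability. A count of 0 allows up to 3.69 reads, so at low wild-type counts the size of a fold could not be measured. No paired analysis was possible because each group had 1 library and the labels carry no replicate numbers.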

Other observations

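Of the 44 nuclear long non-coding RNAs listed for naming, 6 were in the table, all under labels other than Genic, and 5 of them are given here. Neat1, the scaffold RNA of paraspeckles, had 6 regions on chromosome 19 labelled as UTR, with 32 to 126 wild-type reads against 1 to 13. Tug1 had 54 against 5 in an upstream region, and Airn, the imprinted antisense RNA of Igf2r, had 46 against 1 and 28 against 0 in introns. Rian had 15 against 2, and Pax6os1 had 102 against 0 in an intron. These regions were not selected by the rule above and were named after their values were seen.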
